A study of Homo sapiens with 35 samples.

Results

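Phosphorylation of the α subunit of eIF2 is the switch on which several forms of cellular stress converge, and 8 genes whose products set it were followed in myeloma cells that recovered from a pulse of a proteasome inhibitor. They were the kinases EIF2AK1 (HRI), EIF2AK2 (PKR), EIF2AK3 (PERK) and EIF2AK4 (GCN2), their substrate EIF2S1 (eIF2α), the phosphatase subunits PPP1R15A (GADD34) and PPP1R15B (CReP), and IMPACT, which inhibits GCN2. They were taken by gene symbol from the protein-coding entries of the deposited count table, where all 8 were found among 19665 entries, and all 8 had counts in all 35 libraries. Of these entries 17999 had a count in any library and were tested.

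The cells were RPMI-8226, an established multiple myeloma line. The libraries of day 0 were taken as untreated, although the labels list the treatment for day 0 as well, because the methods place their collection ahead of the drug. The libraries of days 1, 2, 4, 6, 8 and 10 came from cells exposed for 1 h to 750 nM carfilzomib, an irreversible proteasome inhibitor, followed by removal of the drug. Each of the 7 days had 5 libraries from separate subcultures. The methods name 5 subcultures for RNA sequencing and collection on all 7 days, so the same subcultures were probably sampled on each day. Libraries of different days would then be paired by subculture, which the main tests do not use. The subcultures are described as divided from one expanded culture, so the spread between libraries, and every p-value that rests on it, covers culture, library and sequencing rather than separate experiments. On days 2 to 10 the cells were collected just before a change of medium, so the age of the medium was alike on these days. Its part in differences from days 0 and 1 cannot be told apart from that of the time after the drug. After the pulse, cell density was adjusted on days 6 and 8, so the density at collection may differ between days. The part of density cannot be told apart from that of time. Since bulk RNA was measured, fewer cells with a transcript and less of it per cell cannot be told apart either.

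Library totals were 6519392 to 10962890 estimated counts. Levels are given as CPM, protein-coding counts brought to a common library total after scaling by TMM factors of 0.929 to 1.08. Of 10 plasma cell and myeloma markers 9 had counts in all 35 libraries, led by MAF with a median of 1887 CPM, and IGLC2 was not listed as protein coding. Their sum was 3651 to 3836 CPM on day 0 and 2679 to 2807 CPM on day 1. Of the markers of other cell types, the stromal COL1A2 had no count, and CD2, CD3D, LYZ and COL3A1 had counts in at most 7 libraries, with a highest value of 0.317 CPM for LYZ. The B cell markers MS4A1 and PAX5 and the T cell marker CD3E had counts in all 35 libraries, up to 13.3, 4.71 and 4.81 CPM.

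Each kinase senses a different condition. HRI responds to heme shortage and to mitochondrial and proteotoxic stress in the cytosol, PKR to double-stranded RNA, PERK to unfolded protein in the ER, and GCN2 to amino acid shortage and stalled ribosomes. Once phosphorylated, eIF2α blocks its own guanine nucleotide exchange factor eIF2B, which lowers general protein synthesis while it favours the translation of ATF4 and a few other mRNAs. GADD34 is induced by this response and CReP is present without stress, and both bring protein phosphatase 1 to eIF2α, so that the phosphate is removed. Plasma cells make large amounts of secreted protein.

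The promoters of the phosphatase subunit genes are shown because both mRNAs were lower than on day 0 on every day after the pulse and differed in how far. The window was the 250 bases before each gene's start in RefSeq (GRCh38.p14), and 7 of the 8 genes matched, with EIF2AK1 as the exception. A set of 8 motifs was searched on both strands, and the same search was made in all 35116 windows of the table. The printed stretch of PPP1R15A is chr19:48872352-48872381 on the plus strand and is limited to the surroundings of the match, because 209 bases of its window, the printed stretch and the match among them, lie in the first exon of a longer transcript in GENCODE release 44. The match is thus upstream of the RefSeq start but within that transcript. The printed stretch of PPP1R15B is chr1:204411888-204412067 on the minus strand, upstream of all of its annotated transcripts. Capitals mark TGACGTCA, the palindromic cAMP response element, in PPP1R15A and a match to TGATGNAA, a form of the composite ATF4 and C/EBP site, in PPP1R15B.
PPP1R15A: gcctctcttcgTGACGTCAgcacgccgggc
PPP1R15B: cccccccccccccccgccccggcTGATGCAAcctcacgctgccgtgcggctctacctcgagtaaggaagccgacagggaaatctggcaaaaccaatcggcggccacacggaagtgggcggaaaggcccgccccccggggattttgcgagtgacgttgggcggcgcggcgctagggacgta
TGACGTCA started 58 bases before the start of PPP1R15A and was present in 1.65% of all windows. TGATGNAA started 227 bases before the start of PPP1R15B and was present in 3.14% of all windows. Neither was found in the windows of the other members. The core of the interferon-stimulated response element, the ER stress response element and the core of the heat shock element were found in the window of no member and in 3.02%, 0.074% and 0.441% of all windows. CCAAT, the CCAAT box, was found in EIF2AK2, EIF2AK3 and PPP1R15B, the GC box GGGCGG in EIF2AK2, EIF2AK4, IMPACT and PPP1R15B, and TGACNNNGC, the core of the antioxidant response element, which did not overlap the printed match, in PPP1R15A alone. They were present in 32%, 42.6% and 10.9% of all windows.

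Both phosphatase subunits fell, and PPP1R15A had the largest change of all members. PPP1R15A was at 90.3, 78.4, 86.3, 73.2 and 76.6 CPM in the 5 libraries of day 0. On day 1 it was at 23.8, 20.8, 22.7, 25.0 and 23.8 CPM, and on day 2 at 8.04, 7.72, 6.65, 9.1 and 9.28 CPM. The libraries of the 3 days did not overlap, and PPP1R15A fell on day 1 (log2 fold change −1.80 ± 0.10 (SE), edgeR, Q = 3.79e-19) and again from day 1 to day 2 (−1.52 ± 0.12, Q = 6.23e-14). Its mean on day 2 was 8.16 ± 1.08 CPM (SD, n = 5), from 56 to 72 counts per library, so that its level was 9.92-fold below the day 0 mean.

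PPP1R15A did not return to its level of day 0 within 10 days. It was at 17.1, 15.0, 20.5, 13.0 and 20.0 CPM on day 4 and at 29.9, 35.5, 34.1, 28.2 and 27.3 CPM on day 6. It was then at 15.5, 20.7, 18.8, 17.6 and 21.8 CPM on day 8 and at 24.4, 24.6, 23.1, 28.7 and 21.3 CPM on day 10. GADD34 mRNA thus rose up to day 6, fell from day 6 to day 8 with no overlap between the libraries, and was higher again on day 10. The 4 steps after day 2 were 1.08 ± 0.13 (Q = 3.75e-09), 0.85 ± 0.11 (Q = 2.5e-07), −0.71 ± 0.11 (Q = 2e-05) and 0.37 ± 0.11 (Q = 0.022). It was the only member to differ in all 5 consecutive steps, and on day 10 it was still lower than on day 0 by a log2 fold change of −1.73 ± 0.10 (Q = 1.14e-17). The call of the last step was lost when the fit held only the 10 libraries of days 8 and 10 (Q = 0.051), and without day 8 replicate 1 (Q = 0.0735), day 8 replicate 4 (Q = 0.0574) or day 10 replicate 4 (Q = 0.0914).

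PPP1R15B was at 234, 228, 247, 227 and 233 CPM on day 0. It was at 94.2, 92.2, 90.6, 86.3 and 91.0 CPM on day 1 and at 83.4, 91.0, 91.5, 85.8 and 85.3 CPM on day 2. All libraries of both days were below all libraries of day 0, while days 1 and 2 overlapped and did not differ (−0.05 ± 0.06, Q = 0.47). The fall of CReP mRNA was −1.36 ± 0.05 on day 1 (Q = 4.22e-24) and −1.42 ± 0.05 on day 2 (Q = 1.3e-24). It rose to 119.8 ± 9.96 CPM on day 4 and to 152 ± 9.9 CPM on day 6, then showed no further step past the threshold. On day 10 it was at 143 ± 5.5 CPM, lower than on day 0 (−0.71 ± 0.05, Q = 1.39e-14).

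The ratio of PPP1R15A to PPP1R15B within a library was lower than on day 0 on all 6 days. It went from 0.346 ± 0.0249 (SD, n = 5) on day 0 through 0.256 ± 0.0234 on day 1 to 0.0938 ± 0.0151 on day 2, and was 0.172 ± 0.024 on day 10. On the log2 scale the difference from day 0 was −0.44 ± 0.07 (SE) after 1 day, −1.90 ± 0.12 after 2 days and −1.02 ± 0.10 by day 10. Each had p = 0.00794 in a two-sided exact permutation test, the smallest that 5 against 5 libraries can give, and p = 0.0113 after adjustment over the 30 tests on ratios and shares. All of these tests took the libraries as independent and did not pair them by subculture. With 5 pairs, a paired two-sided exact test could not give a p-value under 0.05. The inducible subunit therefore lost more of its mRNA than the constitutive one, mostly between day 1 and day 2.

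**Figure D1:**
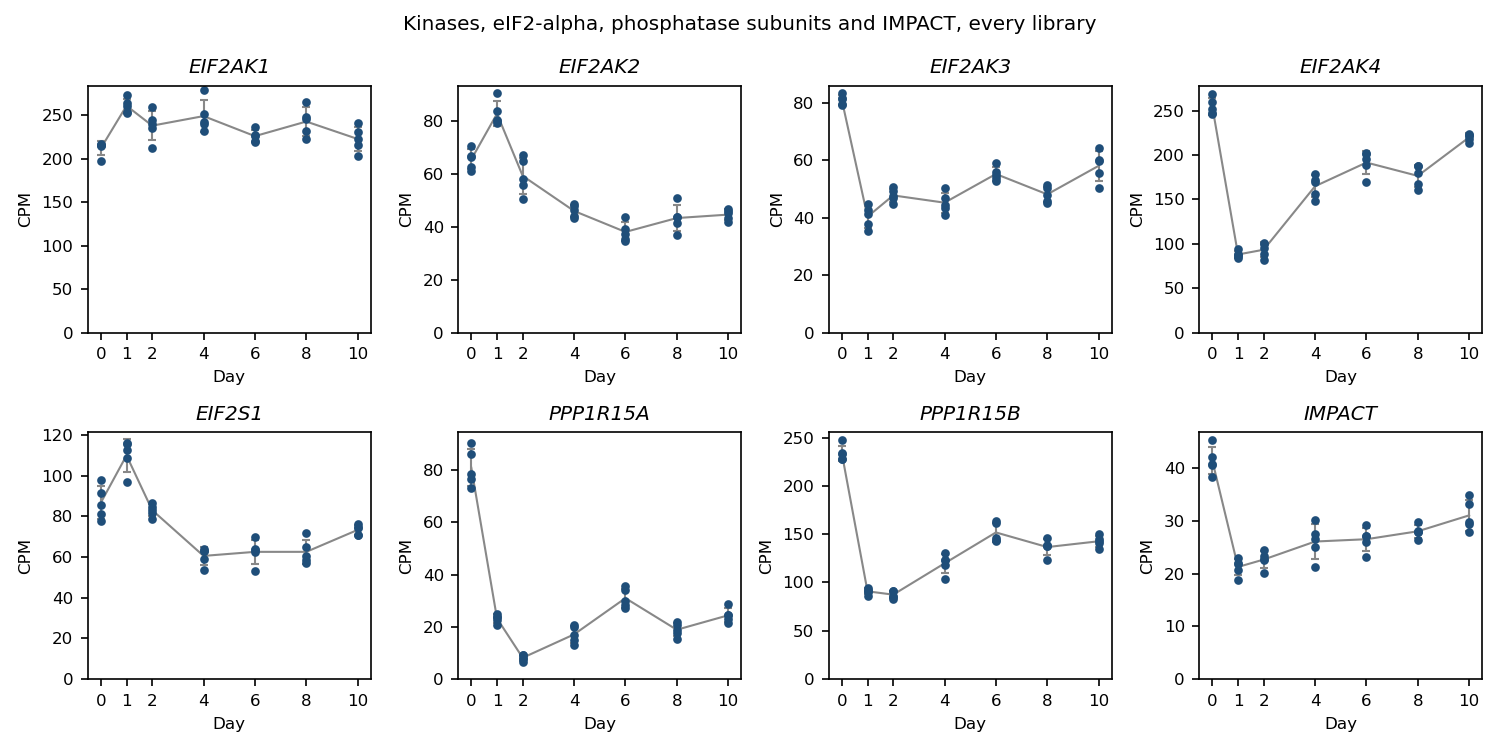
CPM of the 8 transcripts (y axis, starting at 0) in each of the 35 libraries (points) by day (x axis), with the mean and SD of the 5 libraries of a day (grey line and bars). PPP1R15A is lowest on day 2 at 8.16 CPM and EIF2AK4 on day 1 at 88.0 CPM, while EIF2AK1 stays between 198 and 279.7 CPM.

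The 4 kinases moved differently. EIF2AK4, which encodes GCN2, was at 247, 252, 246, 260.3 and 269 CPM on day 0. It was at 83.9, 88.5, 94.2, 86.1 and 87.4 CPM on day 1 and at 88.8, 95.5, 99.8, 81.6 and 101 CPM on day 2. The 5 highest of these 15 values, with a wide gap to the rest, were those of day 0. EIF2AK4 fell on day 1 (−1.53 ± 0.06, Q = 1.83e-24) and on day 2 (−1.45 ± 0.06, Q = 1.15e-23), and the days did not differ from each other (0.09 ± 0.06, Q = 0.274). The step from day 2 to day 4 was a rise of 0.82 ± 0.06 (Q = 1.54e-14). On day 10 it was at 223, 222, 224, 213 and 218 CPM, still below all libraries of day 0 but by only −0.21 ± 0.06 (Q = 0.00263).

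EIF2AK3, which encodes PERK, was at 83.5, 81.7, 79.2, 79.6 and 81.4 CPM on day 0 and at 41.5, 35.4, 44.7, 42.7 and 37.7 CPM on day 1. The days did not overlap, and the fall was −1.01 ± 0.07 (Q = 4.98e-17). Without single libraries of these days it was between −1.04 and −0.96, so that the 2-fold limit was passed or missed with the library left out. Daily means from day 2 to day 10 lay between 45.3 ± 3.54 CPM on day 4 and 58.1 ± 5.23 CPM on day 10. EIF2AK3 was lower than on day 0 on all 6 days, by −0.48 ± 0.06 on day 10 (Q = 4.99e-08). It differed in 3 of the 5 consecutive steps, all of them rises.

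EIF2AK1 and EIF2AK2 were higher on day 1. EIF2AK1, which encodes HRI, was at 198, 217, 214, 215 and 216 CPM on day 0 and at 254, 264, 273, 253 and 260.4 CPM on day 1. The days did not overlap, and the rise was 0.30 ± 0.05 (Q = 7.28e-06). One library of day 0, at 198 CPM, lay apart from the other 4, and without it the rise was 0.26. EIF2AK1 was higher on day 2 (0.17 ± 0.05, Q = 0.00823), day 4 (0.23 ± 0.05, Q = 0.000451) and day 8 (0.20 ± 0.05, Q = 0.00316). On day 6 its log2 fold change was 0.09 ± 0.05 (Q = 0.199) and on day 10 it was 0.07 ± 0.05 (Q = 0.349). Its daily means spanned 1.23-fold, the smallest span of the members. The call on day 2 was lost without that library (Q = 0.0682) and without day 2 replicate 2 (Q = 0.0698).

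EIF2AK2, which encodes PKR and belongs to the interferon-stimulated genes, was at 66.5, 66.8, 62.7, 70.7 and 61.2 CPM on day 0. It was at 79.5, 80.4, 90.6, 83.9 and 80.1 CPM on day 1 and at 43.7, 35.4, 37.4, 39.4 and 34.8 CPM on day 6. Day 1 was above and day 6 below every library of day 0. EIF2AK2 rose on day 1 (0.34 ± 0.07, Q = 9.39e-05), was at −0.14 ± 0.07 on day 2 (Q = 0.1), and was lower on days 4 to 10, by between −0.78 ± 0.08 on day 6 (Q = 2.67e-11) and −0.51 ± 0.07 on day 4 (Q = 3.01e-07). It fell in each of the consecutive steps from day 1 to day 6 and differed in none after that.

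The kinase mRNAs also changed in proportion to each other. Divided by the length of the longest protein-coding transcript in GENCODE release 44, EIF2AK1 made up 40.8% ± 0.956 (SD, n = 5) of the summed CPM per kb of the 4 kinases on day 0 and EIF2AK4 39.1% ± 0.789. On day 1 these shares were 64.5% ± 0.902 and 17.3% ± 0.222, and on day 10 they were 47.2% ± 1.74 and 37.2% ± 1.26. EIF2AK3 held 14.6% ± 0.571 on day 0 and 9.31% ± 0.777 on day 1. EIF2AK2 held 5.52% ± 0.339 on day 0, 8.93% ± 0.251 on day 1 and 4.14% ± 0.21 on day 10. The shares depend on the length used. With the median protein-coding transcript length EIF2AK1 held 72.8% ± 0.782 on day 0 and 88.2% ± 0.384 on day 1, and EIF2AK4 19.3% ± 0.57 and 6.55% ± 0.0923. With both lengths the share of EIF2AK1 was higher and that of EIF2AK4 lower on day 1 than on day 0. The ratio of EIF2AK4 to EIF2AK1 in CPM, whose change between days does not depend on the lengths used, was 1.20 ± 0.0474 on day 0, fell to 0.337 ± 0.00562 on day 1 and was 0.991 ± 0.0668 by day 10. On the log2 scale it was lower than on day 0 on all 6 days, by −1.83 ± 0.03 (SE) on day 1 and −0.28 ± 0.05 on day 10 (exact permutation test, p = 0.00794 and adjusted p = 0.0113 each). On day 1 EIF2AK4 and EIF2AK1 had each separated from day 0 in opposite directions, so the p-value of that day repeats the tests of the members.

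**Figure D2:**
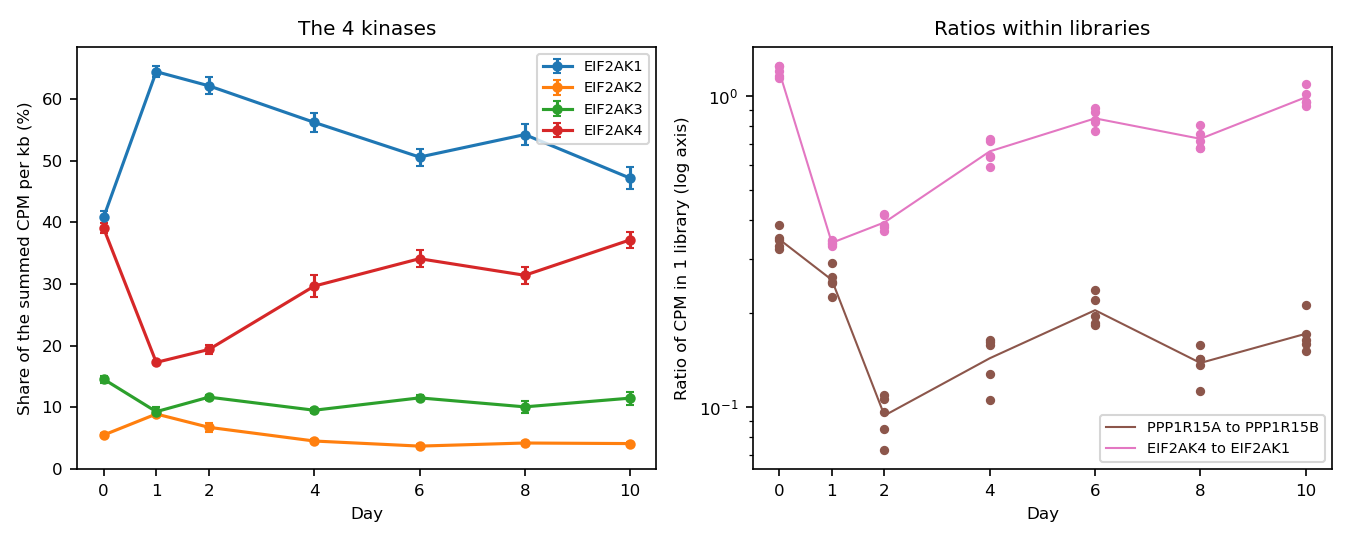
Left, share (%) of the summed CPM per kb (longest transcript) of the 4 kinases held by each, as mean and SD of 5 libraries per day. Right, on a log axis, the ratio of PPP1R15A to PPP1R15B and of EIF2AK4 to EIF2AK1 in each library (points) with the daily mean (lines). The share of EIF2AK1 goes from 40.8% on day 0 to 64.5% on day 1 and the ratio of PPP1R15A to PPP1R15B is lowest on day 2 at 0.0938.

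The substrate and the inhibitor of GCN2 were on opposite sides on day 1. EIF2S1 was at 77.6, 85.9, 81.0, 97.8 and 91.4 CPM on day 0, at 96.7, 113, 116, 116 and 109 CPM on day 1 and at 59.1, 63.2, 64.2, 62.9 and 53.5 CPM on day 4. Day 1 overlapped day 0 by 1 library on each side, whereas day 4 lay below day 0 entirely. The mRNA of eIF2α rose on day 1 (0.35 ± 0.07, Q = 2.61e-05), was at −0.06 ± 0.07 on day 2 (Q = 0.513), and was lower on days 4 to 10, from −0.51 ± 0.07 on day 4 (Q = 6.98e-08) to −0.24 ± 0.07 on day 10 (Q = 0.00602). The call on day 10 was lost without day 0 replicate 4 (Q = 0.0537). The ratio of PPP1R15B to EIF2S1 went from 2.72 ± 0.311 on day 0 to 0.831 ± 0.0877 on day 1, a log2 difference of −1.71 ± 0.10 (exact permutation test, p = 0.00794 and adjusted p = 0.0113). PPP1R15B had fallen without overlap while EIF2S1 rose, so this p-value repeats the tests of the members.

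IMPACT was at 40.8, 40.6, 38.4, 45.5 and 42.2 CPM on day 0, at 21.9, 22.0, 20.7, 18.9 and 23.0 CPM on day 1 and at 33.2, 34.9, 27.9, 29.5 and 29.8 CPM on day 10. All libraries after the pulse were below those of day 0. The fall was −0.96 ± 0.08 on day 1 (Q = 4.49e-13) and −0.41 ± 0.08 on day 10 (Q = 6.75e-05), and no consecutive step passed the threshold. Since GCN2 mRNA fell further, the ratio of IMPACT to EIF2AK4 was higher on day 1, at 0.242 ± 0.0217 against 0.163 ± 0.00753 on day 0 (log2 difference 0.57 ± 0.07, exact permutation test, p = 0.00794 and adjusted p = 0.0113). On day 10 the ratio was lower than on day 0, at 0.141 ± 0.0125 (−0.21 ± 0.06, exact permutation test, p = 0.0238 and adjusted p = 0.0325).

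Counted together, all 8 members differed from day 0 at Q ≤ 0.05 on day 1, 3 of them higher and 5 lower, while of all 17999 transcripts 25.4% were higher and 27.3% lower. On day 2, 1 was higher and 5 lower, against 23.2% and 24.4% of all transcripts. On day 4, 1 was higher and 7 lower, against 19.0% and 20.1%. PPP1R15A, PPP1R15B, EIF2AK3, EIF2AK4 and IMPACT were lower on every day. On day 6, none was higher and 7 were lower, against 17.5% and 17.0%, and on day 8, 1 was higher and 7 lower, against 18.2% and 18.6%. On day 10, none was higher and 7 were lower, against 16.1% and 15.8%. EIF2AK1 was the member not called on days 6 and 10. The median log2 fold change of the 8 was −0.98 on day 1 and −0.45 on day 10, beside −0.06 and −0.02 over all transcripts. These shares include transcripts with few counts, which are rarely called, and all 6 comparisons share the libraries of day 0.

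Changes past 2-fold at Q ≤ 0.05 were found for EIF2AK3, EIF2AK4, PPP1R15A and PPP1R15B on day 1 (4 of 8, against 20.4% of all transcripts) and for EIF2AK4, PPP1R15A and PPP1R15B on day 2 (3 of 8, against 15.3%). In the 4 later comparisons PPP1R15A was the only member past 2-fold, where 9.41%, 6.71%, 8.18% and 5.93% of all transcripts were.

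Between consecutive time points, 5 members differed in the first step after day 1, where 39.6% of all transcripts did. EIF2AK2, EIF2S1, EIF2AK1 and PPP1R15A fell and EIF2AK3 rose, and the call of EIF2AK1 (−0.13 ± 0.05, Q = 0.0462) was lost in 6 of 10 fits without a library. In the step to day 4 the members called were 5 (30.6% of all transcripts), with EIF2AK4, PPP1R15A and PPP1R15B higher and EIF2AK2 and EIF2S1 lower. In the step to day 6 they were again 5 (12.1%), EIF2AK3, EIF2AK4, PPP1R15A and PPP1R15B higher and EIF2AK2 lower. In the step to day 8 the 1 member called was PPP1R15A (2.56%). In the last step, EIF2AK3, EIF2AK4, EIF2S1 and PPP1R15A rose (4 of 8, against 10.1%), and the call of EIF2S1 (0.23 ± 0.07, Q = 0.0269) was lost in 6 of 10 fits without a library. Without day 8 replicate 1 the count of this step was 2.

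**Figure D3:**
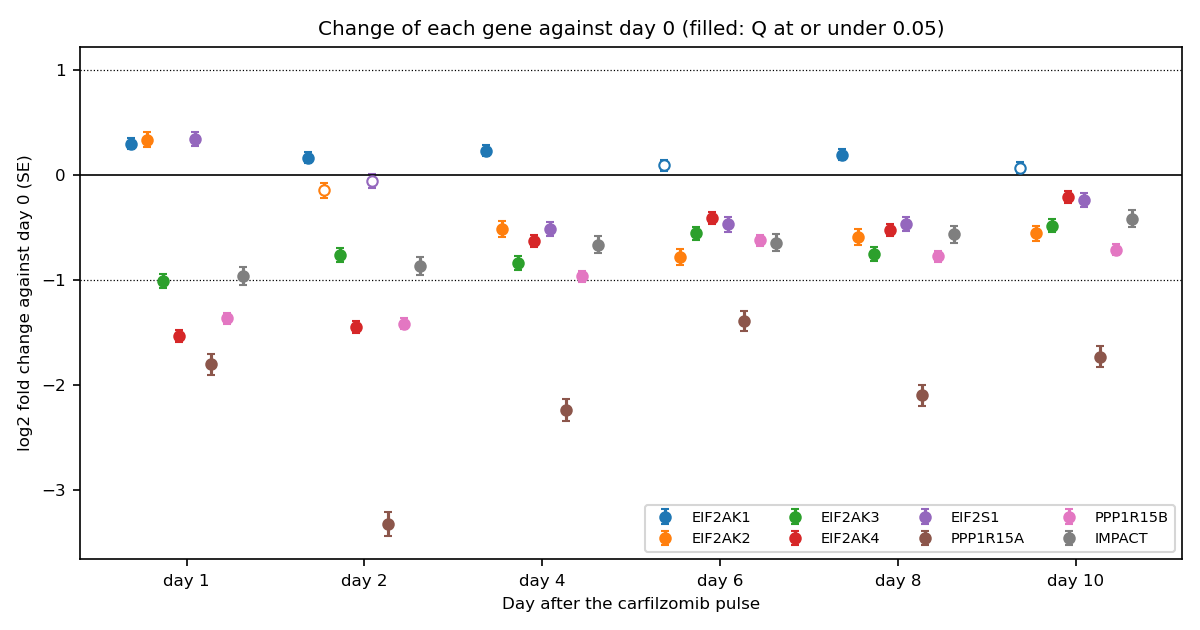
log2 fold change against day 0 (y axis, bars are the SE from edgeR) of the 8 transcripts by day, with filled points for Q ≤ 0.05, open points for the rest and dotted lines at 2-fold. PPP1R15A reaches −3.32 on day 2, and open points are those of EIF2AK1 on days 6 and 10 and of EIF2AK2 and EIF2S1 on day 2.

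Levels of different genes were compared per length only. On day 0 EIF2AK1 was at 48.1 ± 1.82 CPM per kb of the longest transcript (SD, n = 5), EIF2AK4 at 46.0 ± 1.73 and PPP1R15B at 44.5 ± 1.51, and the libraries of these neighbours overlapped. PPP1R15A followed at 24.9 ± 2.19 CPM per kb and EIF2S1 at 20.9 ± 1.95, which overlapped as well. EIF2AK3 at 17.2 ± 0.374, IMPACT at 11.1 ± 0.697 and EIF2AK2 at 6.49 ± 0.371 CPM per kb each lay apart from their neighbours in all libraries. With the Ensembl canonical transcript the order was the same, and with the median transcript length 4 of the 8 were at the same place, with IMPACT at place 3 in place of 7 and PPP1R15A at 6 in place of 4. EIF2AK1 was the highest and EIF2AK2 the lowest with each length.

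The profile of each member past 2-fold on any day was set beside those of the 12301 transcripts with enough counts, as the root mean square difference of 7 centred daily means of log2 CPM. The nearest to EIF2AK3 were IRS1 (0.0598), HIST1H2BK (0.0766) and MORC4 (0.0785), and the nearest to EIF2AK4 were EDEM1 (0.079), BCL2 (0.0895) and PHYKPL (0.098). For PPP1R15B they were ZNF667 (0.0533), an entry named after a genomic clone (0.0566) and ALDH2 (0.0708). PPP1R15A had no neighbour as near: KDM6B, a histone demethylase gene, was at 0.241, TRIB3, an ATF4 target gene, at 0.258 and RNF39 at 0.263. The difference is not scaled to the size of a change, so its values for different members are not directly comparable. The daily means of PPP1R15A spanned 9.92-fold, and those of EIF2AK3, EIF2AK4 and PPP1R15B 2.01-, 2.89- and 2.68-fold. Among the members the most alike were EIF2AK3 and IMPACT (0.106) and EIF2AK2 and EIF2S1 (0.13). The profiles rest on 35 libraries that all of these transcripts share.

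The table also lists non-coding transcript types under the symbols of 6 members, a readout that was not used to choose them. There were 11 such entries with counts, none of them for PPP1R15A and PPP1R15B, and they were tested among 65717 entries of all types with CPM over all types. Of the 11 entries 2 differed from day 0 in each of the first 3 comparisons, where 21.9%, 18.4% and 14.2% of all entries did. On day 6 edgeR called none (11.5% of all entries), with 2 at an unadjusted p under 0.05, and DESeq2 called 1. Days 8 and 10 had 1 each (12.8% and 10.3%).

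The retained-intron entry of EIF2S1 rose more than its coding entry. It was at 16.5, 21.2, 17.7, 23.3 and 21.8 CPM on day 0, at 39.4, 41.4, 51.6, 54.4 and 56.2 CPM on day 1 and at 40.3, 41.0, 26.6, 32.2 and 39.9 CPM on day 2. All libraries of days 1 and 2 were above those of day 0, by 1.28 ± 0.14 on day 1 (Q = 6.96e-10) and 0.84 ± 0.14 on day 2 (Q = 6.52e-06). Its share of the counts of both entries was 23.3% ± 0.669 (SD, n = 5) on day 0 and then 33.4% ± 2.68, 33.2% ± 3.83 and 30.6% ± 4.6 at the next 3 time points. The increase was 10.1 ± 1.24 percentage points (SE) on day 1 and 7.26 ± 2.08 on day 4 (exact permutation test, p = 0.00794 and adjusted p = 0.0113 each). On day 10 the share was 25.6% ± 3.3, a difference of 2.25 ± 1.51 points (exact permutation test, p = 0.183 and adjusted p = 0.211). In GENCODE release 44 of the same genome build, GRCh38, this type holds 2 transcripts of EIF2S1 on chromosome 14, one of 534 bases from 67382411 to 67383668 and one of 527 bases from 67360353 to 67374648. Neither of them keeps a whole intron of the Ensembl canonical transcript. Pseudoalignment divides reads between transcripts that share sequence, and how far this sets the share was not tested.

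The retained-intron entry of EIF2AK3 moved the other way. It had 28, 12, 21, 13 and 7 counts on day 0 and 3, 2, 1, 2 and 3 counts on day 1. The days did not overlap, and the log2 fold change was −2.66 ± 0.63 (Q = 0.00106). It was also called lower on days 2, 4 and 10, at −2.53 ± 0.61 (Q = 0.00155), −2.23 ± 0.60 (Q = 0.00685) and −1.83 ± 0.58 (Q = 0.035). Its share of the counts of both entries was 3.22% ± 1.3 on day 0 and 0.887% ± 0.35 on day 1. The filter on low counts removed this entry. The retained-intron entry of EIF2AK1 was higher on day 4 (0.46 ± 0.15, Q = 0.0301). That of IMPACT had 19 counts over the libraries of day 0 and 0 over those of day 8 (Q = 0.0163), too few to give a fold.

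**Figure D4:**
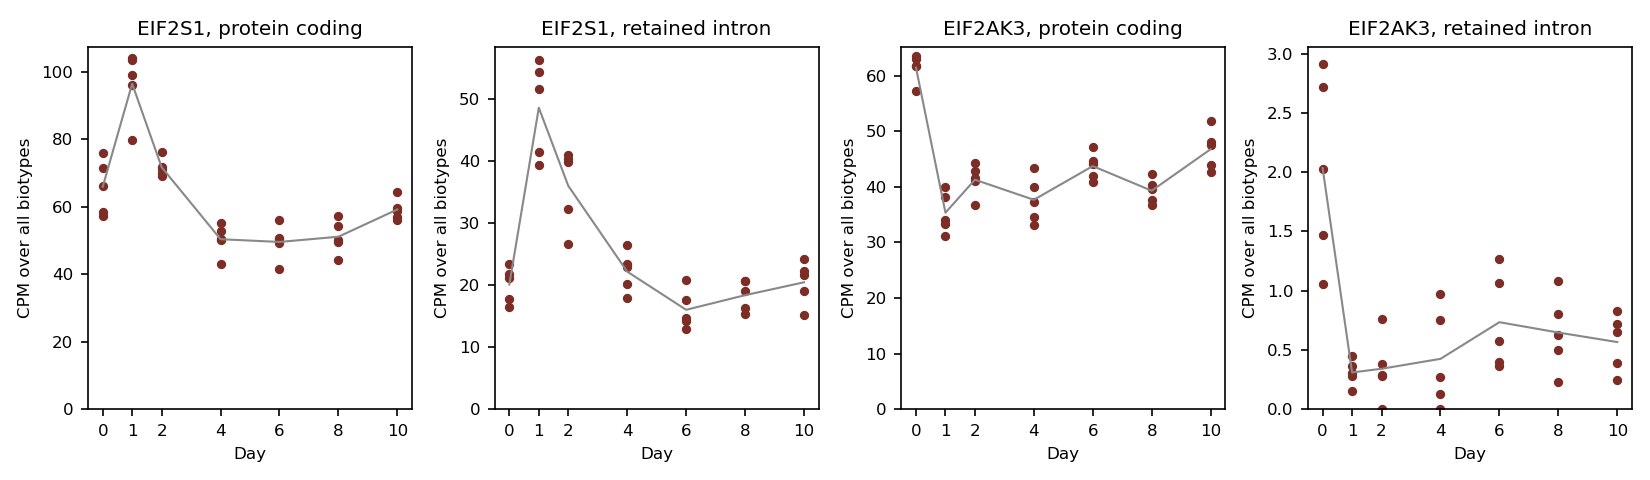
CPM over all transcript types (y axes, starting at 0) of the protein-coding and retained-intron entries of EIF2S1 and EIF2AK3 in each library (points) by day, with daily means (lines). The retained-intron entry of EIF2S1 goes from a mean of 20.1 CPM on day 0 to 48.6 CPM on day 1, and that of EIF2AK3 from 2.03 to 0.309 CPM.

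Other genes of the pathway were counted in fixed lists, and their counts are read beside the 25.4% of all transcripts called higher and 27.3% called lower on day 1, and the 16.1% and 15.8% on day 10. Of 9 genes for the remaining eIF2 and eIF2B subunits and their GTPase partners, 5 were higher and 2 lower on day 1, and 4 were higher and 3 lower on day 10. EIF2B3, the γ subunit of eIF2B, had the highest log2 fold change on day 1 (1.58 ± 0.07, Q = 1.62e-21, from 28.6 ± 1.15 to 85.3 ± 6.61 CPM) and EIF2S2, the β subunit of eIF2, the lowest (−0.79 ± 0.05, Q = 1.96e-16). On day 10 the highest was EIF2B5, the catalytic subunit of eIF2B (0.49 ± 0.10, Q = 0.000206), and the lowest EIF5, which promotes GTP hydrolysis by eIF2 (−1.05 ± 0.07, Q = 3.9e-15). The median of the list was 0.53 on day 1 and 0.04 on day 10. The mRNAs of the exchange factor that phosphorylated eIF2α blocks were therefore among those higher on day 1, with EIF2B3, EIF2B4 and EIF2B5 called higher and EIF2B1 at −0.04 (Q = 0.566) and EIF2B2 at −0.15 (Q = 0.617).

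Of 12 regulators of the kinases and phosphatases, 5 were higher and 5 lower on day 1 (25.4% and 27.3% of all transcripts), and 4 were higher and 4 lower on day 10 (16.1% and 15.8%), with medians of 0.01 and −0.005. TARBP2, which encodes an inhibitor of PKR, was highest on day 1 (0.70 ± 0.25, Q = 0.019) and NCK1 on day 10 (0.42 ± 0.09, Q = 0.000334). HSPA5, the ER chaperone that holds PERK inactive, was lowest on both days (−0.93 ± 0.05, Q = 4.39e-20, and −0.62 ± 0.05, Q = 7.65e-14). GCN1, the coactivator of GCN2, was higher on day 1 by 0.49 ± 0.05 (Q = 6.13e-12), opposite to EIF2AK4. The catalytic subunits of protein phosphatase 1 did not share the fall of PPP1R15A and PPP1R15B, with PPP1CA at 0.20 ± 0.08 (Q = 0.025), PPP1CB at 0.09 ± 0.05 (Q = 0.139) and PPP1CC at −0.06 ± 0.05 (Q = 0.331) on day 1.

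Of 14 transcripts of the integrated stress response downstream of eIF2α, 1 was higher and 11 were lower on day 1 (25.4% and 27.3% of all transcripts), and 1 was higher and 9 lower on day 10 (16.1% and 15.8%), with medians of −1.77 and −0.47. ATF3 was lowest on both days (−3.05 ± 0.13, Q = 5.69e-23, and −2.73 ± 0.13, Q = 8.34e-21) and DDIT4 highest (0.37 ± 0.15, Q = 0.0402, and 1.36 ± 0.15, Q = 1.83e-09). In the step to day 6 this list had 12 higher and none lower, where 12.1% of all transcripts differed in either direction, and in the step to day 8 none higher and 9 lower, where 2.56% did, the same steps in which PPP1R15A rose and then fell. Of 15 genes of the ER unfolded protein response, 1 was higher and 12 lower on day 1 and none higher and 8 lower on day 10, beside the same shares of all transcripts. ATF6 (0.49 ± 0.05, Q = 2.38e-10) and HERPUD1 (−2.20 ± 0.06, Q = 1.62e-28) were at the ends on day 1, and PDIA6 (0.08 ± 0.05, Q = 0.24) and SEL1L (−1.03 ± 0.06, Q = 4.7e-18) on day 10.

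Of 22 interferon-stimulated genes other than EIF2AK2, 4 were higher and 12 lower on day 1 (25.4% and 27.3% of all transcripts), and 1 was higher and 16 lower on day 10 (16.1% and 15.8%), with medians of −0.66 and −1.15. The higher count on day 1 was not above the share of all transcripts. IFI44 was the highest on day 1 (2.02 ± 0.44, Q = 0.000138) and XAF1 the lowest (−4.25 ± 0.67, Q = 7.04e-07). BST2, which encodes tetherin, was the highest on day 10 (0.53 ± 0.06, Q = 1.68e-09) and IFI44L the lowest (−4.08 ± 0.66, Q = 2.93e-06). EIF2AK2 was on the higher side on day 1 with the minority of this list and on the lower side on day 10 with the majority.

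**Figure D5:**
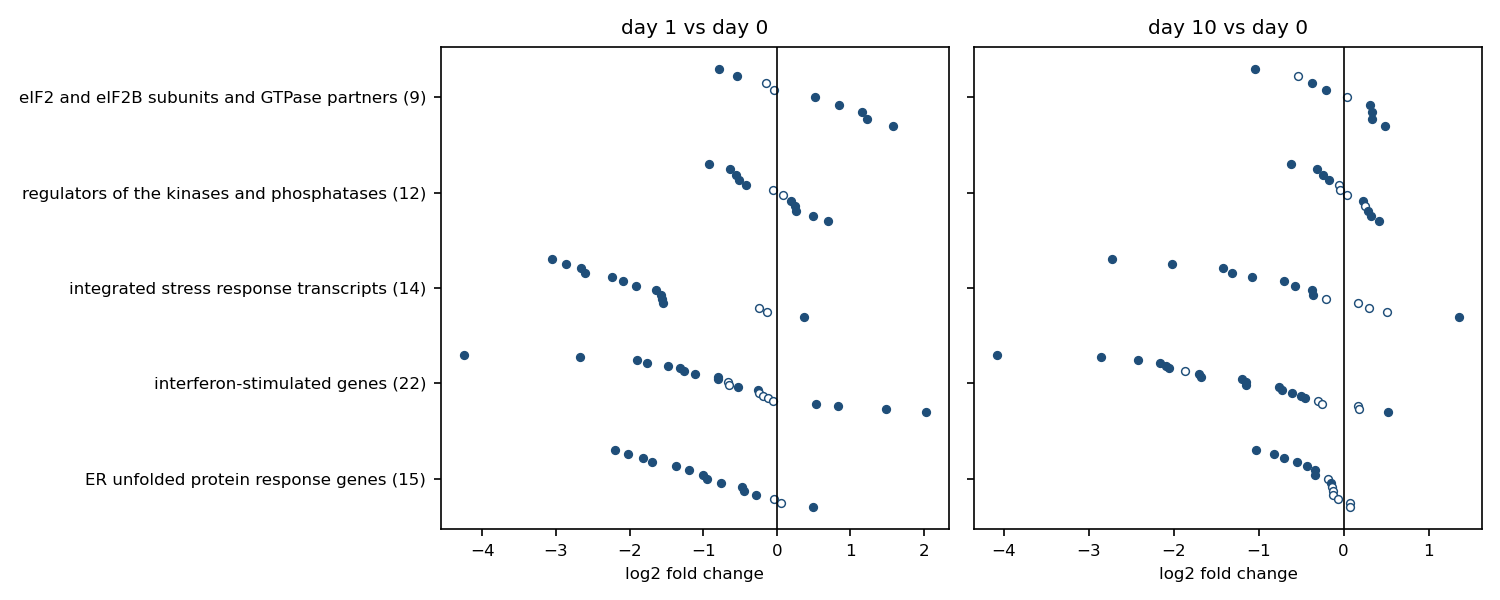
log2 fold change on day 1 (left) and day 10 (right) against day 0 of the genes of 5 pathway lists (rows, with the number of genes), filled for Q ≤ 0.05 and sorted within a row. Transcripts of the integrated stress response have a median of −1.77 on day 1, and those for eIF2 and eIF2B subunits and partners a median of 0.53.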

How the data were processed

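RNA-seq of 35 RPMI-8226 libraries (7 days, 5 libraries each) was analysed from estimated counts. Per the labels and the study's methods, the authors estimated transcript counts from paired-end reads of a strand-specific kit with kallisto 0.44.0. They used GENCODE transcripts (GRCh38.p12), adjusted for GC bias, and summarised the counts with tximport with an adjustment for gene length. Whether the deposited counts carry the adjustment for length, which would bear on the values per kb, was not tested. The deposited estimated counts are whole numbers per symbol and transcript type. Whether strand was used is not given in the sources used here. Genes on the opposite strand overlap EIF2AK1, EIF2AK2, EIF2AK3, EIF2AK4 and PPP1R15B, and their reads may not be told apart.

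The 17999 protein-coding entries that were not at 0 in every library (1666 were) were fitted with edgeR 4.0.16 in R 4.3.3 (quasi-likelihood, TMM, day as a factor over all 35 libraries, Benjamini–Hochberg adjustment, reported as Q). Calls were made at Q ≤ 0.05, and past 2-fold at an absolute log2 fold change above 1. Contrasts were of each later day with day 0 and of neighbouring time points. The fit was tested on simulated data first. Ratios and shares were tested by exact two-sided permutation of libraries, without pairing by subculture. No pair of libraries of a day agreed within sampling noise. A library held 6519392 to 10962890 counts, and a member 56 to 2416 counts per library.

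Named were the 8 members, the list genes with the highest and lowest change on days 1 and 10 among those with a mean log2 CPM above 0, and the 3 transcripts nearest in profile to each member past 2-fold. EIF2B1, EIF2B2, EIF2B4, GCN1 and the PPP1C genes were named after their values were seen. Members and lists were chosen with earlier results of these data known. Alternatives were filterByExpr, RLE factors, no scaling factors, the replicate block, the libraries of 2 days alone, DESeq2 1.42.0, other transcript lengths and each library left out. One marker is not reported here.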

Additional observations from a re-analysis of the deposited data

Results flagged for a closer look

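One value stood apart from its group. EIF2AK1 in day 0 replicate 1 was at 198 CPM, while the other 4 libraries of day 0 lay between 214 and 217 CPM, and the gap was 0.841 of the group's range, above the limit of 0.71 for 5 libraries. Among the 56 groups of 5 libraries tested it was the only such value, and chance alone gives about 1 in 20 groups. Without this library the log2 fold change of EIF2AK1 was 0.26 on day 1 and 0.12 on day 2.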

How the results depend on the processing

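Of the 88 member values (8 members, 11 comparisons), 85 kept their call or lack of one with filterByExpr and 85 with RLE factors. So did 84 without scaling factors, 86 with only the libraries of the 2 days and 86 with DESeq2. No value called in either fit changed direction, and changes of sign between values not called were not counted. Calls were gained for EIF2AK2 on day 2 (filterByExpr, Q = 0.0268), for IMPACT in the step to day 4 (3 settings, Q = 0.0128 to 0.0432) and for EIF2AK1 in the step to day 6 (4 settings, Q = 0.00319 to 0.0448). Calls were lost for EIF2AK1 in the step to day 2 (RLE, Q = 0.0523), EIF2AK4 in the step to day 6 (no scaling factors, Q = 0.0533) and, in the last step with only its libraries, EIF2S1 (Q = 0.0532) and PPP1R15A (Q = 0.051). The cause was not tested. Without single libraries 855 of 880 member values and 283 of 300 ratios and shares kept their call or lack of one, and 18 and 15 lost their call. Values not called in either fit could change sign. EIF2S1 in the step to day 6 was at 0.04 with all libraries and between −0.02 and 0.08 without single ones. From day 8 to day 10 the number of members that differed was 2 in place of 4 with only the libraries of the 2 days, in which fewer libraries estimate the spread, and 2 to 4 without single libraries.

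Without scaling factors the median of transcripts with enough counts moved to 0.12, 0.13 and 0.10 on days 1, 2 and 4, and the share of higher calls over all transcripts went from 48.7% to 59.3% on day 2, from 48.6% to 61.6% on day 4 and from 50.4% to 60.4% on day 10. EIF2AK1 then differed on days 6 and 10 as well (Q = 0.0183 and 0.0276), and no member value called in either fit changed direction.

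Of the other transcript types, filterByExpr, which removed low entries, left 1 differing on each of days 1, 2 and 4 and 0 on days 8 and 10. DESeq2 called 1 on day 6 and 2 on day 8. With the median transcript length 4 members kept their place in the order of levels, and 8 with the canonical length, which was added after the data were seen, as were the ratios and shares without single libraries. The RLE factors gave the same 12 nearest profiles.

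By the methods, libraries of different days were probably paired by subculture, but the methods do not say whether the replicate numbers mark the subcultures. The deviations of same-numbered libraries of different days had a mean correlation of 0.00588, with 2 of 105 pairs above 0.1. Of 35 libraries 14 were closest to their own number, where an even spread gives 7. The numbers were not used as pairs in the main fit or in the permutation tests, and a pairing is not excluded. With the replicate block all 88 member calls were the same, and 2 other entries differed on day 8 in place of 1. Depth limits PPP1R15A most, at 56 to 72 counts per library on day 2, and the low entries of other transcript types.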

Other observations

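The study's primer list for quantitative PCR holds pairs for 2 of the kinases, and their names and sequences were crossed with respect to GENCODE release 44. Each pair was searched, as forward primer and reverse complement of the reverse primer, in all transcripts of that release. The primers are shown because they decide which kinase such an assay reads.
GCN2 forward: gatccggttccttggtgtca
GCN2 reverse: ccatgctttcacggtcttgg
EIF2AK3 forward: ggagcaacagtggttcccat
EIF2AK3 reverse: ggcaagggaggtctgaagtc
The pair named GCN2 matched 4 transcripts of EIF2AK3, which encodes PERK, 2 of them protein coding, with a product of 117 bases, and no transcript of EIF2AK4. The pair named EIF2AK3 matched 4 transcripts of EIF2AK4, which encodes GCN2, 2 of them protein coding and 2 retained-intron transcripts, with a product of 111 bases, and no transcript of EIF2AK3. Of the 14 pairs in the list, 11 matched transcripts of the gene they are named for and the pair named ATG7 matched none. Whether the names were exchanged in the list alone or in use as well is not known, and the sequencing values do not depend on it.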
